A study of Mus musculus with 4 samples.

Results

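The cells and tissue described here are the array spots that carry the region label VL in the deposited spot table. The files do not spell the label out, and it is read here, from the genes described below, as brain ventricle with choroid plexus. In all, 289 of 10549 spots carried it: 52 of 2721 in the wild-type section, 102 of 2540 in the Dp16 section, 40 of 2347 in the 5xFAD section and 95 of 2941 in the 5xFAD-Dp16 section. The sections were brain hemispheres of male mice aged 9 months, snap-frozen, cut at 10 µm between bregma 1 and -2 mm, fixed in methanol and stained with hematoxylin and eosin before their RNA was captured on a Visium array. Each genotype had 1 section: wild-type C57BL/6J, Dp16, 5xFAD, and the cross 5xFAD-Dp16. In Dp16 mice a duplication covers the stretch of mouse chromosome 16 matching much of human chromosome 21, which gives its genes an extra copy. In 5xFAD mice the Thy1 promoter drives mutant human transgenes of familial Alzheimer's disease in neurons, and amyloid plaques form. A Visium spot is a small region that can hold parts of several cells of different types. The spot barcodes mark array positions, and 1996 of them occurred in all 4 sections. The sections held 26049860 to 36461389 UMIs (captured molecules). With 1 section per genotype no comparison between genotypes had a replicate, no p-value was computed, and every interval covers counting error only.

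The choroid plexus is a fold of specialised epithelium, laid over fenestrated capillaries and stroma, that hangs into the ventricles. Its epithelial cells secrete cerebrospinal fluid by moving sodium, bicarbonate, chloride and water across their membranes, form the barrier between blood and that fluid through tight junctions, and release carrier proteins, above all transthyretin, the carrier of thyroxine and retinol encoded by Ttr. The ventricle walls beside it are lined by ependymal cells, whose motile cilia move the fluid, and RFX factors and FOXJ1 are known regulators of motile cilia genes.

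Promoter sequences are shown for a pair of markers of the choroid plexus and a pair of cilia genes, because both groups of genes were high in VL spots and the share of promoters with 1 short motif differed between them. They are the 250 bases before the start of Kcne2, the potassium channel subunit of the choroid epithelium (chr16:92292139-92292388), of Ecrg4, a secreted peptide precursor (chr1:43730352-43730601), of Dynlrb2, a dynein light chain (chr8:116504765-116505014), and of 1110017D15Rik (chr4:41507765-41508014, on the minus strand, the others on the plus strand, and lying at a start within the annotated gene), from RefSeq for the build GRCm38.p6, 5′ to 3′. Capitals mark the RFX half-site GTTGCC or its complement GGCAAC.
Kcne2: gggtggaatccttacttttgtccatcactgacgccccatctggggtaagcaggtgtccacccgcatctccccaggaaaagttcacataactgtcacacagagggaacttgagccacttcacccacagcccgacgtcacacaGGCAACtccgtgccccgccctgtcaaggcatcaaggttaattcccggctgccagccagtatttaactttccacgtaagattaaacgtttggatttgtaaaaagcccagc
Ecrg4: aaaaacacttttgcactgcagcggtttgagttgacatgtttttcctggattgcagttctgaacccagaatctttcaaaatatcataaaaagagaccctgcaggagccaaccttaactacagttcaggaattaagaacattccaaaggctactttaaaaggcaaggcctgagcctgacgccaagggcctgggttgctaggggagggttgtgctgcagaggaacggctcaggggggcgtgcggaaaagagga
Dynlrb2: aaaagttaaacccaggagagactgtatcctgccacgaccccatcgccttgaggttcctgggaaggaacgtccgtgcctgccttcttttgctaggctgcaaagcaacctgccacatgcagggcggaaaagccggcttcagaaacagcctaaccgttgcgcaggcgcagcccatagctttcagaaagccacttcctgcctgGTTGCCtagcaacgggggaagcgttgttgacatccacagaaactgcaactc
1110017D15Rik: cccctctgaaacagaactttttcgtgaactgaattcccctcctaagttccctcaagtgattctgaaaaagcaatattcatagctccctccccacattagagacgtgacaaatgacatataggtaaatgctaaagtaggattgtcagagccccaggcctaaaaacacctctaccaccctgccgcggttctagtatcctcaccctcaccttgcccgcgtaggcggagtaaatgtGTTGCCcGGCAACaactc
The half-site began 109 bases before the start of Kcne2 and 51 before that of Dynlrb2, and the Ecrg4 window held none. It began 18 and 11 bases before the internal start shown for 1110017D15Rik, where the 2 matches face each other. The windows of Calml4 and of the cilia-list gene Mia, not shown, held none either. Kcne2 and 1110017D15Rik had 2 windows each, of which 1 is shown. For 1110017D15Rik this is the window nearer the 3′ end of the annotated gene, and not the one nearer its 5′ end. Over the cilia list 14 of 33 windows held it (42.4%), over the choroid plexus list 5 of 26 (19.2%), and over all 32851 promoter windows 10.4%, with both strands searched. The windows belonged to 26 of 30 cilia genes and 20 of 24 choroid genes. The OTX core TAATCC was in 9.09% and 3.85% of these 2 sets of windows against 6.25% of all, and the forkhead motif TGTTTAC in 12.1% and 3.85% against 3.17%. The 3 motifs do not contain one another, and a match is a description of the letters only.

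The label was read from its markers, so their levels describe it and do not test it. Kcne2, Ecrg4, Calml4 (a calmodulin-like protein) and Ttr were the highest in VL among the 12 regions with at least 30 spots in every section, in all 4 sections. Wherever 4 values follow each other without section names, they stand for wild-type, Dp16, 5xFAD and lastly 5xFAD-Dp16. Kcne2 stood at 170, 462, 375 and 513 CPM in VL, where CPM is the depth-scaled count, a gene's summed UMIs over all UMIs in the same spots, times 1000000. The next region held 31.5 CPM in wild-type (the region labelled FB), 70.7 in Dp16 (Cortex CTXsp), 103 in 5xFAD and 64.4 in 5xFAD-Dp16 (both CNU). Ttr made up 14.1% of all UMIs in VL spots of the wild-type section and up to 25.5% in the others. The wild-type VL spots were the lowest of the 4 for both genes. Foxj1, the master regulator of motile cilia, was also highest in VL in every section, at 70.4, 57.2, 86.5 and 119 CPM. Its distance from the next region was shorter, since FB held 40.3, 44.2, 43.5 and 36.1 CPM.

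VL was nevertheless a mixture. The spots fell into 13 of the 22 expression clusters that the deposited spot table gives, and the share of cluster 13, led by Ttr, Kcne2, Ecrg4 and Calml4, was 14 of 52 VL spots in wild-type (26.9%, exact 95% interval 15.6 to 41.0), 45 of 102 in Dp16 (44.1%, 34.3 to 54.3), 27 of 40 in 5xFAD (67.5%, 50.9 to 81.4) and 54 of 95 in 5xFAD-Dp16 (56.8%, 46.3 to 67.0). The wild-type interval lay below that of 5xFAD and of 5xFAD-Dp16. The remaining VL spots were of different kinds in different sections. In wild-type, 21 spots belonged to cluster 3, with the myelin gene Mal among its leading genes, and 11 to cluster 14, with the striatal gene Penk among its leading genes. In Dp16, 27 belonged to cluster 0, with a median of 25.7% mitochondrial UMIs, and 10 to cluster 18, led by C1ql2 and Dsp, genes of dentate granule cells. In 5xFAD, 11 belonged to cluster 21, led by the medial habenula genes Tac2, Gng8, Gpr151 and Pou4f1, of which wild-type had 4 spots and the Dp16 and 5xFAD-Dp16 sections none. In 5xFAD-Dp16, 14 belonged to cluster 3 and 7 to cluster 14. The sources used here do not say how regions and clusters were drawn. The leading genes were taken from the VL spots of each cluster only, and not from the whole cluster. Since clusters come from expression, the genes that lead them are descriptions.

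**Figure D1:**
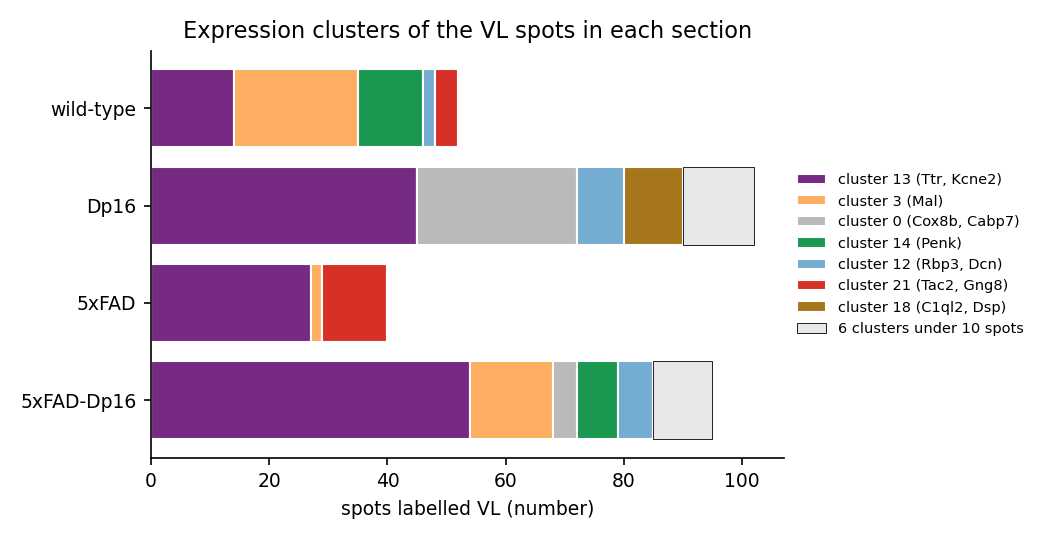
Number of VL spots (x axis) in each section (y axis), coloured by the deposited expression cluster, with 1 or 2 leading genes of each cluster's VL spots. Cluster 13 holds 14, 45, 27 and 54 spots from top to bottom, and the remaining colours differ from section to section.

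Cluster 13 was not confined to VL. It had 269 spots, of which 140 were labelled VL and 91 FB, a region whose abbreviation the files do not spell out. VL spots held 47.2, 74.5, 56.7 and 81.8% of all Kcne2 UMIs of their section, while cluster 13, inside or outside VL, held 84.0, 77.6, 79.9 and 83.2%. By the Kcne2 they held, the wild-type and 5xFAD labels therefore took in less of the section's choroid signal than those of the other 2 sections. Foxj1 was more spread out: VL held 17.5, 39.3, 26.5 and 47.1% of its UMIs.

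From spot to spot, Ttr ranged over nearly its whole scale. Within VL, its share of a spot's UMIs ran from 0 to 42.4% in wild-type (median 2.51%), from 0.047 to 43.0% in Dp16 (median 9.32%), from 0 to 43.7% in 5xFAD (median 24.1%) and from 0.024 to 41.8% in 5xFAD-Dp16 (median 4.85%). The highest spot of each section was thus near the same level, and the medians differed. Spots with Ttr at 30% or more of their UMIs numbered 4, 29, 17 and 22, and all of these were in cluster 13. In VL spots of cluster 13 the medians were 21.3, 34.5, 33.4 and 24.8%, against 1.64, 1.00, 0.014 and 1.07% in VL spots of other clusters. Cluster 13 itself had spots with little Ttr: 3 of 27 in 5xFAD and 7 of 54 in 5xFAD-Dp16 were under 1%, and none of 14 and 45 in the other 2 sections. The same spots held more RNA: VL spots of cluster 13 had median totals of 23016, 43413, 32338 and 26274 UMIs, while spots outside VL had 11669, 10305.5, 9323 and 11034.5. They also had few mitochondrial UMIs, with medians of 4.31 to 5.11% against 14.4 to 16.8% outside VL. VL spots of other clusters had median totals of 9661.5, 11759, 18849 and 9666 UMIs. Their mitochondrial medians were 11.03, 16.02, 5.24 and 10.17%, so the 5xFAD value lay near that of cluster 13. Neither trait was confined to cluster 13: the 10 VL spots of cluster 18 in Dp16 had medians of 30344 UMIs and 4.17%.

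**Figure D2:**
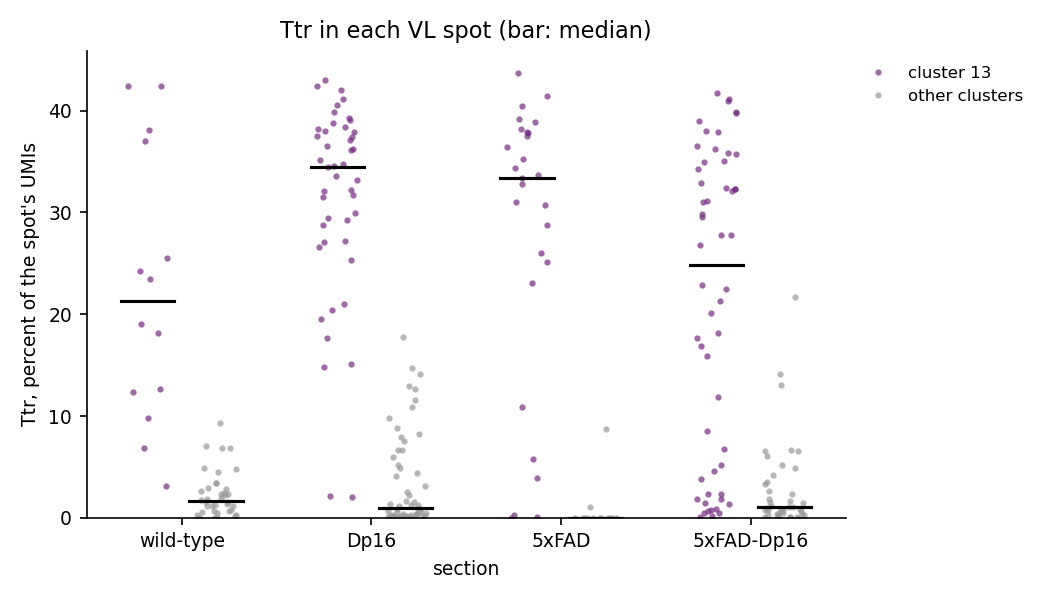
Share of each VL spot's UMIs that is Ttr (y axis, percent) by section (x axis), for spots of cluster 13 (purple) and of other clusters (grey), with the median as a bar. The highest spots lie between 41.8 and 43.7% in every section, and spots of other clusters mostly lie under 10%.

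Ttr UMIs were found in 50 of 52, 102 of 102, 39 of 40 and 95 of 95 VL spots. Kcne2 is far less abundant, and a spot without a Kcne2 UMI is not thereby shown to lack choroid RNA. For its share of spots, all spots were first reduced at random to 7343 UMIs, which left out 7, 11, 3 and 8 VL spots of lower depth. A Kcne2 UMI was then found in 16 of 45 VL spots in wild-type (35.6%, exact interval 21.9 to 51.2), 59 of 91 in Dp16 (64.8%, 54.1 to 74.6), 20 of 37 in 5xFAD (54.1%, 36.9 to 70.5) and 47 of 87 in 5xFAD-Dp16 (54.0%, 43.0 to 64.8). The unthinned shares were 36.5, 63.7, 55.0 and 52.6%. The intervals of wild-type and Dp16 did not overlap, and each of the other pairs did. Kcne2 lies in the segment that is duplicated in the Dp16 and 5xFAD-Dp16 sections. The part of the extra copy in these shares was not tested. In Cortex SSp, a cortical region with no choroid plexus, it was found in 0 of 84, 0 of 89, 0 of 67 and 0 of 91 thinned spots. With a count of 0 read as allowing 3 spots, the limits were 3.57, 3.37, 4.48 and 3.30%. These limits are not the exact intervals used above. SSp was a region of very low Kcne2. Over all spots outside VL, without thinning, a Kcne2 UMI was found in 37 of 2669, 209 of 2438, 138 of 2307 and 127 of 2846 spots. Median depths were 10675, 19282.5, 22470.5 and 14651 UMIs per VL spot and 10018, 10258.5, 8607.5 and 8587.5 per SSp spot. A Foxj1 UMI was found in 33.3, 26.4, 37.8 and 42.5% of thinned VL spots, with intervals that all overlapped.

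Outside VL, Ttr was still present at 3686, 10808, 9142 and 3611 CPM. The ratio of Ttr to the summed UMIs of Kcne2, Ecrg4 and Calml4 in VL spots of cluster 13 was 104 (97.7 to 111), 97.4 (95.2 to 99.8), 102 (98.6 to 106) and 83.2 (80.9 to 85.7). Cluster 13 spots outside VL had lower ratios in every section, at 82.8 (78.1 to 88.0), 83.6 (77.8 to 89.9), 87.3 (82.2 to 92.9) and 55.2 (49.8 to 61.4), with no overlap of the intervals. Spots outside both VL and cluster 13 had ratios of 86.4 (78.1 to 95.9), 117 (112 to 123), 109 (103 to 115) and 101 (95.1 to 107). This last ratio was lower than in VL spots of cluster 13 in wild-type and higher in Dp16 and 5xFAD-Dp16, with intervals that did not overlap. RNA spread over the section was not tested as a source of the signal outside VL.

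Of 2619 genes whose mean level in VL reached 50 CPM, 364 (13.9%) were at least 1.5-fold higher in VL than in the other spots of the same section in all 4 sections, and 371 (14.2%) were lower in all 4. With Ttr left out of the totals these counts were 491 and 181. All 24 listed choroid plexus genes and all 30 listed cilia genes were among the higher genes when the expression minimum was not applied. With it, the median log2 ratio of 23 choroid genes was 4.90, 4.31, 4.57 and 5.71, beside medians of -0.08, -0.27, -0.21 and -0.23 over all 2619 genes. For 13 cilia genes it was 3.31, 3.33, 3.62 and 4.69. These members passed the minimum through their level in VL itself, so the medians describe the label and do not test it. For the counts without the minimum, here and below, no share over all genes was computed, so they too are descriptions only. Against FB alone, the region with the next most cluster 13 spots, the choroid medians were 2.32, 2.88, 2.60 and 4.26, and against Hippocampus 6.27, 6.56, 6.80 and 6.60.

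The genes that led the VL spots included secreted proteins and transporters of the choroid epithelium. Kcne2 had the largest of the smallest ratios over the 4 sections, at 5.26, 4.86, 4.96 and 6.40 on the log2 scale. It was followed by F5, coagulation factor V (4.90, 4.84, 5.10 and 6.5), Ins2, an insulin gene (5.63, 4.62, 5.07 and 5.69), Calml4 (5.02, 4.67, 4.61 and 6.17) and Ecrg4 (4.90, 4.59, 4.76 and 5.86). Ins2 stood at 29.4, 59.7, 64.6 and 52.0 CPM in VL and at 0.60, 2.42, 1.92 and 1.01 CPM elsewhere. The 5xFAD-Dp16 section had the highest ratio for each of the 25 leading genes. Its Kcne2 level outside VL was 6.10 CPM, against 15.9 in Dp16, 12.1 in 5xFAD and 4.44 in wild-type.

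By role, and with no expression minimum, 12 of 14 listed secreted and carrier proteins were higher in VL in all 4 sections. Of the 12 past the minimum, which members could pass through their VL level, 11 were higher. The share over all genes past the minimum was 13.9%, here and for the roles that follow, and none was computed without the minimum. Enpp2, the enzyme autotaxin, stood at 5836, 7617, 10284 and 7421 CPM in VL and at 318, 466, 529 and 259 CPM elsewhere. Sostdc1, a BMP and WNT antagonist, had log2 ratios of 4.84, 4.46, 4.52 and 5.82, and Kl, the FGF23 co-receptor klotho, had 4.84, 4.31, 4.66 and 5.73. Igfbp2, which binds insulin-like growth factors, had 3.52, 3.28, 3.90 and 4.06.

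Among genes of ion and water transport, 11 of 18 were higher in all 4 sections and 1 was lower with no minimum. With the minimum, 11 of 16 were higher. The higher ones included the water channel gene Aqp1, with ratios of 5.24, 4.60, 4.42 and 6.10, and the potassium channel gene Kcnj13, with 4.92, 4.24, 4.80 and 5.89. The bicarbonate transporter gene Slc4a5 had 5.4, 4.23, 4.75 and 5.71, and the sodium, potassium and chloride cotransporter gene Slc12a2 had 1.85, 1.55, 1.68 and 1.96. Subunits of the sodium pump that other brain cells also make were not among them; Atp1b2, for one, had -0.18, -1.09, -0.62 and -0.86.

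Of solute carriers and uptake proteins, 16 of 18 were higher in all 4 sections with no minimum, and 10 of 11 with it. The folate receptor gene Folr1 had ratios of 4.92, 3.66, 4.27 and 5.19, and Slc29a4, a monoamine transporter gene, had 3.05, 3.01, 3.51 and 3.71. Of junction and keratin genes 8 of 12 were higher with no minimum, and 2 of 2 with it. Of receptor and transcription factor genes these counts were 10 of 11 and 5 of 5. The tight junction gene Cldn2 had ratios of 5.27, 4.42, 4.57 and 6.12, and the transcription factor gene Otx2 had 4.47, 4.18, 4.42 and 5.12. Htr2c, a serotonin receptor also made by neurons, had lower ratios of 1.38, 1.62, 2.02 and 1.63.

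**Figure D3:**
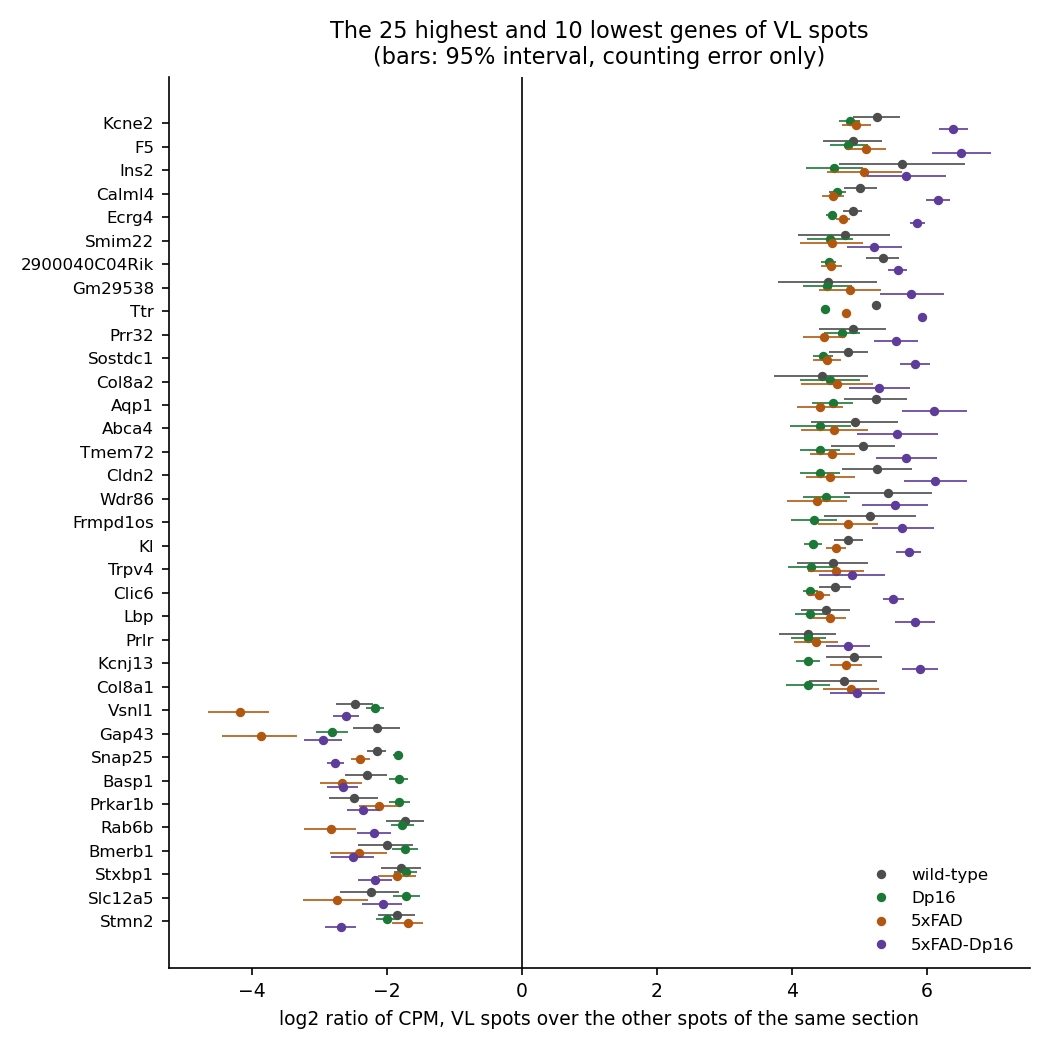
Log2 ratio of CPM in VL spots over the other spots of the same section (x axis) for the 25 genes with the highest and the 10 with the lowest ratios (y axis), with 1 coloured point per section and its 95% interval. Every one of the 25 lies above 4.2 in each section, and the 5xFAD-Dp16 points mostly lie farthest right.

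Immune lists were less uniform. Of 20 interferon-stimulated genes in the files, 8 were higher in VL in all 4 sections with no minimum. Among them were the 6 that passed the minimum, which they could do through their VL level, beside 13.9% of all genes past it. Ifi27 had ratios of 2.60, 2.59, 2.64 and 2.41, and Bst2, which tethers viruses to the membrane, had 2.87, 3.01, 3.06 and 2.03. Of 28 plaque-associated microglia genes, with no minimum, 7 were higher in all 4 and 1 was lower. Of the 11 past the minimum 6 were higher and 0 lower, beside 13.9% and 14.2% of all genes past it. No share over all genes without the minimum was computed to set beside the counts of these 2 lists without it. Apoe, which astrocytes and the choroid plexus also express, had 1.01, 0.65, 0.71 and 0.74. Cd74, the MHC class II chaperone of antigen-presenting cells, had 3.75, 2.54, 0.18 and 2.33 and did not reach 1.5-fold in 5xFAD. The sums of the 7 listed MHC class II genes were 187, 219, 106 and 223 CPM in VL and 26.1, 61.3, 77.1 and 62.4 CPM elsewhere.

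Neuronal genes were the lowest in VL, and 11 of 12 listed were lower in all 4 sections with no minimum. All 8 that passed the minimum were lower, beside 14.2% of all genes past it, while no share was computed without the minimum. Vsnl1, a neuronal calcium sensor, stood at 141, 164, 39.9 and 121 CPM in VL against 786, 741, 726 and 739 elsewhere. Snap25, a synaptic fusion protein gene, had ratios of -2.15, -1.84, -2.40 and -2.77. Myelin genes differed among sections: none of 12 was on 1 side in all 4, and the median ratio of the 11 past the minimum was 1.03, -2.22, -1.29 and 0.11, positive in the wild-type section and in 5xFAD-Dp16.

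The RNA of neighbouring tissue in VL was measured by list sums. The 12 myelin and oligodendrocyte genes summed to 13224, 1227, 2402 and 5620 CPM. The 11 astrocyte genes summed to 1919, 785, 567 and 991 CPM, and the 12 neuronal genes to 1884, 2331, 1083 and 1090 CPM. Restricting VL to cluster 13 lowered all of these without evening them out: myelin genes then summed to 4743, 655, 1635 and 3269 CPM, astrocyte genes to 1232, 315, 441 and 708 CPM, and neuronal genes to 626, 702, 347 and 278 CPM. The wild-type section was the highest and the Dp16 section the lowest for myelin in both selections. Over the same cluster 13 spots the choroid list summed to 283475, 346382, 335234 and 287750 CPM, and the cilia list to 1963, 1552, 2268 and 3387 CPM. Fibroblast genes of the meninges and stroma summed to 343, 281, 195 and 213 CPM, and the defining markers of pituitary tissue to at most 10.8 CPM. In such spots fewer cells of a type and less RNA per cell cannot be told apart.

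**Figure D4:**
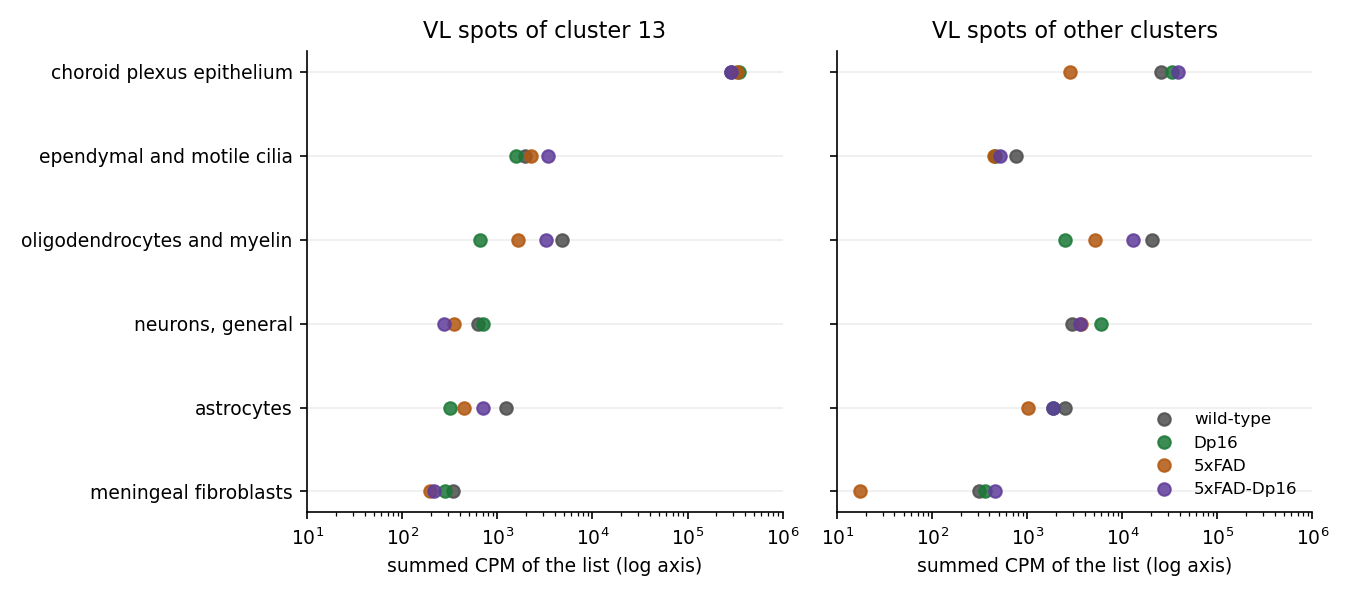
Summed CPM (x axis, log scale) of 6 marker lists (y axis) in VL spots of cluster 13 (left) and of other clusters (right), with 1 coloured point per section. In cluster 13 the choroid list lies between 283475 and 346382 CPM, while the myelin list spreads from 655 to 4743 CPM.

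Some VL spots held small organs of the midline roof, a pattern named here after the values were seen. Sspo, the matrix protein SCO-spondin of the subcommissural organ, had 318 UMIs in VL of 5xFAD-Dp16, of which 305 lay in 6 spots, all in cluster 13. VL of the other 3 sections held 1, 0 and 1 UMIs of it. The pineal genes Tph1, Pde6g, Rbp3 and Gnb3 summed to 436 UMIs in VL of Dp16, with 426 in 8 spots, and to 263 in VL of 5xFAD-Dp16, with 248 in 6 spots, against 2 in each of the other sections. Habenula genes marked the reverse pair: Tac2 was at 280 and 565 CPM in VL of wild-type and 5xFAD and at 6.36 and 8.67 CPM in the other 2. The sections thus differed in which structures beside the ventricle carried the label.

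Effects of genotype were read from 2 pairs of sections each, so that the pairs of an effect share no section. Dp16 was compared with wild-type and 5xFAD-Dp16 with 5xFAD for the Dp16 effect, and 5xFAD with wild-type and 5xFAD-Dp16 with Dp16 for the 5xFAD effect. The same 4 sections serve both effects. Over all VL spots, 22 of 2619 genes (0.84%) passed 1.5-fold upward in both Dp16 pairs and 47 (1.79%) downward (44 and 29 with TMM factors, another scaling), while 16 (0.611%) did so upward and 50 (1.91%) downward in both 5xFAD pairs. Between the pairs of an effect, more genes were opposed than shared a direction: 126 genes were 1.5-fold lower in Dp16 than in wild-type and higher in 5xFAD-Dp16 than in 5xFAD, and 8 the other way round. For the 5xFAD effect these counts were 123 and 16. Scaling mattered at this level. TMM factors moved the median of all genes for Dp16 over wild-type from -0.11 to 0.20, and for 5xFAD over wild-type from -0.07 to 0.14. List medians below that are called relative to all genes therefore have the median over all genes subtracted. The other list medians do not.

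Over all VL spots, lowest in both Dp16 pairs were the habenula genes Gng8, at 143, 1.41, 427 and 3.79 CPM, and Tac2, and Gm5741, with no UMI in Dp16 or 5xFAD-Dp16 and 111 and 346 CPM in the other 2 sections. Highest outside the duplicated segment was Npy, neuropeptide Y, at 43.5, 194, 8.55 and 103 CPM. Mgp, matrix Gla protein, was at 226, 488, 279 and 470 CPM. Lowest in both 5xFAD pairs were neuronal genes such as Syn2, a synapsin gene, at 64.0, 166, 21.9 and 45.0 CPM. Without the 15 VL spots of cluster 21, an alternative added after the values were seen, 5 genes were lower in both Dp16 pairs in place of 47, and 48 in place of 22 were higher.

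Within VL spots of cluster 13, where 2245 genes passed the minimum, 11 genes (0.49%) passed 1.5-fold upward in the 2 Dp16 pairs and 14 (0.624%) downward. Of the 11, 6 lay in the duplicated segment of chromosome 16, out of 21 segment genes past the minimum and 89 in the files. Ifnar2 encodes 1 chain of the receptor for type I interferons and was at 58.1, 108, 57.2 and 113 CPM. Mrps6, a mitochondrial ribosomal protein gene, was at 260, 588, 352 and 643 CPM. Atp5j, a subunit of the mitochondrial ATP synthase, was at 930, 1707, 963 and 1714 CPM. In each of these 3 genes both sections with the duplication lay above both without it. The log2 ratios of the 2 pairs were 0.90 (95% interval 0.25 to 1.62) and 0.98 (0.50 to 1.48) for Ifnar2, 1.18 (0.87 to 1.5) and 0.87 (0.68 to 1.07) for Mrps6, and 0.88 (0.71 to 1.04) and 0.83 (0.72 to 0.95) for Atp5j. The other 3 were Pigp, an enzyme subunit of GPI anchor synthesis (0.77 and 0.83), Cfap298, a cilia protein gene (0.75 and 0.69), and Atp5o, a second ATP synthase subunit (0.68 and 0.67).

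Across the 21 segment genes the median log2 ratio in cluster 13 was 0.55 and 0.67 in the Dp16 pairs, beside -0.09 and 0.11 over all 2245 genes, and 0.05 and 0.14 in the 5xFAD pairs. The ratio was above 0 in both Dp16 pairs in 16 of 21 members and below 0 in both in none, and it was above 0 in both in 26.9% of all 2245 genes. Some members differed less or had other patterns. App, the mouse amyloid precursor gene, was at 587, 630, 565 and 660 CPM, with ratios of 0.10 (-0.11 to 0.32) and 0.22 (0.06 to 0.39). Sod1, superoxide dismutase, was at 249, 312, 302 and 260 CPM. Olig1, an oligodendrocyte transcription factor gene, was at 96.9, 17.4, 42.6 and 87.0 CPM and was, like the myelin sums, highest in wild-type and lowest in Dp16.

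**Figure D5:**
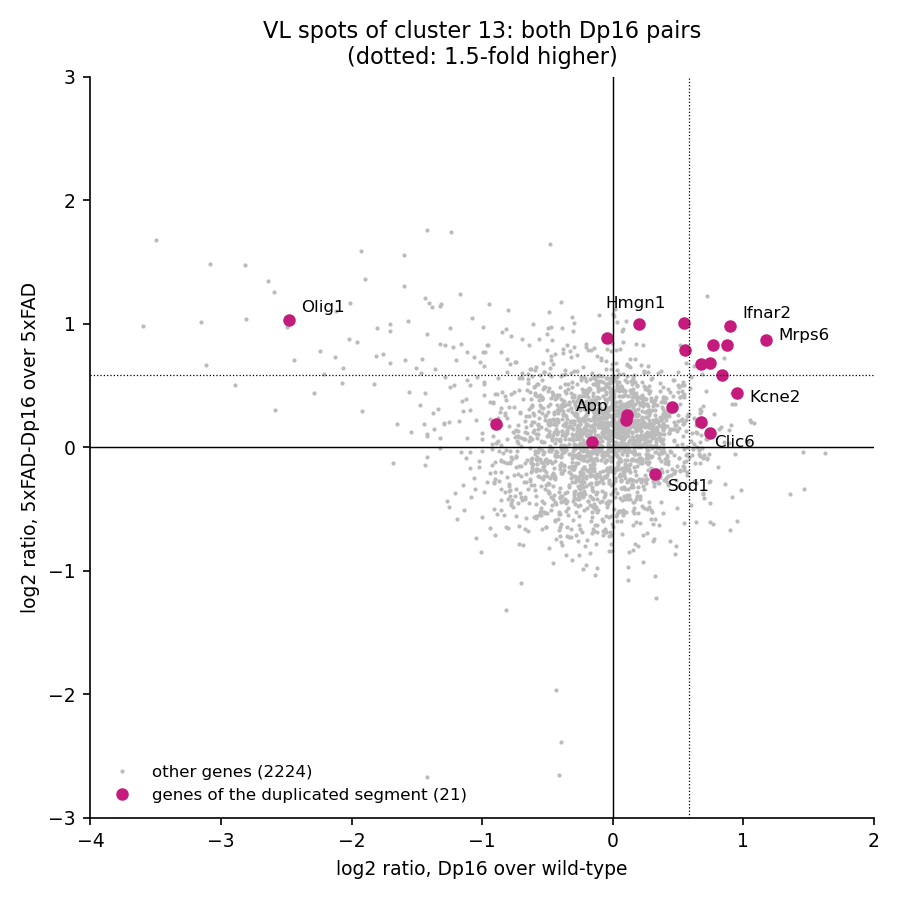
Log2 ratio of CPM in VL spots of cluster 13, Dp16 over wild-type (x axis) against 5xFAD-Dp16 over 5xFAD (y axis), for 21 genes of the duplicated segment (pink) and 2224 other genes (grey). Ifnar2 and Mrps6 lie beyond the dotted 1.5-fold lines in both pairs, Kcne2 and Clic6 in the first pair only, Olig1 lies with the genes that are opposed in the 2 pairs, and 1 gene, Sspo, is outside the axes.

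Kcne2 and Clic6, a chloride channel gene, are markers of the choroid plexus that lie in the segment. Kcne2 was at 332, 642, 481 and 651 CPM in cluster 13, and its ratios were 0.95 (0.68 to 1.23) and 0.44 (0.26 to 0.61) in the Dp16 pairs and 0.53 (0.24 to 0.84) and 0.02 (-0.11 to 0.14) in the 5xFAD pairs. Clic6 was at 568, 909, 694 and 798 CPM, with ratios of 0.68 (0.47 to 0.89) and 0.20 (0.05 to 0.35) in the Dp16 pairs. Both were higher with the duplication in each pair and past 1.5-fold in 1 of 2 pairs. The wild-type section was the lowest in both genes.

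The remaining 21 choroid genes past the minimum showed no member at least 1.5-fold apart in 1 direction in both pairs of either effect, over all VL spots or in cluster 13. Their median over all VL spots, relative to all genes, was 0.69 in the first Dp16 pair (Dp16 and wild-type) and -0.29 in the second, and 0.92 in the first 5xFAD pair (5xFAD and wild-type) and -0.11 in the second. In cluster 13 these became 0.21 and -0.39, then 0.28 and -0.28. The pairs with wild-type were thus positive and the pairs with 5xFAD-Dp16 negative, in both selections, and the differences were smaller in cluster 13 for the pairs with wild-type. In cluster 13 the wild-type section had the highest and the Dp16 section the lowest sums of myelin and astrocyte genes, and their part in these medians was not tested. Ttr itself was at 275974, 337445, 326110 and 279465 CPM in cluster 13, a spread of 0.29 or less on the log2 scale between any compared sections. Ecrg4 stood at 1717, 1985, 1979 and 1814 CPM.

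Some single choroid genes outside the segment differed in 1 or 2 pairs. Kcnj13 was at 213, 358, 407 and 337 CPM in cluster 13, lowest in wild-type. Trpv4, a calcium channel gene that responds to osmotic change, was at 116, 99.5, 124 and 62.6 CPM, lowest in 5xFAD-Dp16, with a ratio of -0.99 (-1.42 to -0.56) over 5xFAD. Slc4a5 was at 180, 165, 223 and 129 CPM, with -0.78 (-1.09 to -0.48) over 5xFAD. Igf2, an insulin-like growth factor of the choroid and meninges, was at 327, 357, 405 and 226 CPM, with -0.84 (-1.07 to -0.62) over 5xFAD and -0.66 (-0.86 to -0.47) over Dp16. In these 3 the 5xFAD-Dp16 section lay below the other 3. Trf, the iron carrier transferrin, was the 1 listed secreted protein that was 1.5-fold lower in both Dp16 pairs, at 836, 520, 1167 and 673 CPM, with -0.68 (-0.87 to -0.49) and -0.79 (-0.93 to -0.66). Oligodendrocytes express Trf too, and the myelin sums of the same spots were 4743, 655, 1635 and 3269 CPM. Their part in the Trf values was not tested.

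Nuclear genes of oxidative phosphorylation, the respiratory chain of mitochondria, showed small differences. Of 76 outside the segment, 48 had ratios above 0 in both Dp16 pairs in cluster 13 (63.2%, beside 26.9% of all genes) and 4 below, and none was 1.5-fold apart in both. Their medians relative to all genes were 0.31 and -0.01 in the Dp16 pairs and 0.18 and -0.13 in the 5xFAD pairs. The list summed to 50243, 60858, 54602 and 59592 CPM.

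Some cilia genes were higher in both 5xFAD pairs. Over all VL spots 5 of 13 members were at least 1.5-fold higher in both, beside 0.611% of all genes, and in cluster 13 it was 2 of 13, beside 7 of 2245 genes (0.312%) higher and 16 (0.713%) lower. The list medians in cluster 13 relative to all genes were 0.25 and 0.84. Tmem107, of the ciliary transition zone, which is not on the list, was at 72.0, 104, 138 and 195 CPM, and its ratios were 0.93 (0.31 to 1.61) and 0.90 (0.64 to 1.17). The list member 1110017D15Rik was at 108, 153, 177 and 250 CPM, with ratios of 0.71 in both pairs. Lrrc51 was at 36.0, 62.2, 68.2 and 120 CPM. In these genes wild-type was the lowest and 5xFAD-Dp16 the highest, with the Dp16 and 5xFAD sections between them.

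Other members of the ependymal and cilia list had another order, with the Dp16 section far below the rest. Ccdc153 was at 66.5, 20.4, 108 and 174 CPM in cluster 13, Tmem212 at 99.7, 20.4, 138 and 186 CPM, Fam183b at 91.4, 24.5, 67.0 and 173 CPM, and Rarres2, the secreted chemoattractant chemerin, at 166, 68.4, 192 and 286 CPM. Foxj1 was at 111, 74.5, 106 and 151 CPM. The ratio of Ccdc153 was 0.71 (0.04 to 1.42) for 5xFAD over wild-type and 3.09 (2.60 to 3.61) for 5xFAD-Dp16 over Dp16. Astrocyte and myelin genes were lowest in the same Dp16 spots, at 315 and 655 CPM, and the part of ventricle wall within the spots was not tested. Leaving out the VL spots rich in Sspo or pineal genes lowered the list's median over all VL spots from 0.57 to 0.28 for 5xFAD-Dp16 over 5xFAD and from 0.99 to 0.74 for 5xFAD-Dp16 over Dp16.

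Genes lower in both 5xFAD pairs in cluster 13 included neuronal ones. Both general neuronal genes past the minimum were among the 16: Snap25 was at 199, 174, 107 and 79.1 CPM, with ratios of -0.90 (-1.36 to -0.43) and -1.14 (-1.46 to -0.83), and the list as a whole summed to 626, 702, 347 and 278 CPM. Both 5xFAD sections lay below both sections without the transgenes for Snap25. Both genes passed the minimum by their mean over sections, which they could do through the sections where they were high. Outside VL the neuronal list summed to 7253, 6194, 6614 and 6226 CPM. How much cortex, striatum or hippocampus the spots touched was not tested.

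Few VL spots carried the deposited plaque mark, which 720 spots of the 5xFAD and 5xFAD-Dp16 sections had. In VL there were 4, all in 5xFAD-Dp16 and none in cluster 13, with 16 marked neighbours in that section and 1 in 5xFAD. Cst7, cystatin F of plaque-associated microglia, had 0, 1, 1 and 37 UMIs in VL, that is 20.1 CPM in 5xFAD-Dp16. Of the 37, 23 lay in a single spot, the only VL spot of cluster 11. In VL spots of cluster 13 Cst7 had 0, 1, 1 and 5 UMIs. Itgax had none in any section, where a count of 0 was read as allowing 3 UMIs.

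The 11 plaque-associated microglia genes past the minimum had medians relative to all genes of 0.08 and -0.03 in the 5xFAD pairs and -0.14 and -0.27 in the Dp16 pairs in cluster 13, and none was 1.5-fold higher in both pairs of either effect. Hif1a, a hypoxia-inducible transcription factor gene, was 1.5-fold lower in both Dp16 pairs, at 74.8, 42.9, 62.1 and 39.6 CPM. Apoe was at 4106, 3228, 4289 and 3347 CPM, with ratios of -0.35 (-0.43 to -0.26) and -0.36 (-0.42 to -0.29) in the Dp16 pairs and 0.06 and 0.05 in the 5xFAD pairs. Both sections with the duplication lay below both without it. Outside VL the same list summed to 3422, 3458, 5334 and 4583 CPM, above wild-type and Dp16 in both 5xFAD sections, and within cluster 13 of VL to 7763, 6558, 8050 and 7001 CPM.

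Among immune genes, Cd74 was at 58.1, 95.9, 36.5 and 85.6 CPM in cluster 13, with ratios of 0.72 (0.07 to 1.45) and 1.23 (0.64 to 1.86) in the Dp16 pairs. Cd74 was the 1 MHC class II gene of 7 past the minimum. Its wild-type value rested on 21 UMIs, 11 of them in 1 spot, and that of H2-Aa on 19, with 10 in 1 spot. H2-Aa, of the same class, was at 52.6, 46.9, 25.6 and 47.5 CPM and H2-Ab1 at 38.8, 42.9, 20.7 and 46.7 CPM, lowest in 5xFAD and not higher in Dp16 than in wild-type by 1.5-fold. The 6 interferon-stimulated genes, which lie outside the segment that holds Ifnar2, had medians relative to all genes of 0.14 and -0.43 in the Dp16 pairs and 0.45 and -0.26 in the 5xFAD pairs, and none was 1.5-fold apart in both. The complement genes C1qa, C1qb and C1qc were at 60.9, 33.7, 34.1 and 53.9 CPM, at 85.8, 36.2, 40.2 and 78.4 CPM, and at 58.1, 31.6, 30.4 and 51.8 CPM. The wild-type and 5xFAD-Dp16 sections lay above the other 2 in each.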

How the data were processed

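Spots of 4 Visium sections were analysed, 1 per genotype. The deposited values are raw UMI counts per gene and spot, made by the authors with Space Ranger on the build mm10 and handled in Seurat, per the submitters' processing notes, which give no versions. The deposited spot table also gives the authors' percent of mitochondrial UMIs, region, cluster and plaque labels; the sources used here do not say how these were drawn. No column of another sample was found (0 columns unused).

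UMIs were summed per section over VL spots, their cluster 13 spots and all other spots, and divided by the summed total (CPM). Genes averaging 50 CPM or more over the 4 sections entered a comparison, and a gene was called at 1.5-fold or more, in all 4 sections (VL over other spots) or in both pairs (genotype). Intervals are 95% exact Poisson, Clopper-Pearson or conditional binomial intervals, and a count of 0 was read as allowing 3 UMIs or spots. No test was run between genotypes. No doublet caller was run, since spots are not cells. Named genes were the 25 highest and 10 lowest by their smallest difference over sections, the 10 highest and lowest by the pair nearer to 0, the segment's 6 highest and 3 lowest, and list members. The members and lists were chosen with earlier results of these data known. Sums and ratios were tested on simulated data. Python 3.11.15, numpy 2.4.6, scipy 1.17.1, pandas 2.3.3 and matplotlib 3.10.9 were used, and R 4.3.3 with edgeR 4.0.16 for TMM factors as an alternative only. Some genes are not reported here.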

Additional observations from a re-analysis of the deposited data

Results flagged for a closer look

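Several lists of neighbouring tissue had medians that were opposed between the 2 pairs of an effect, with every pair's value beyond 1.5-fold; the difference between the pairs was not tested. Values are median log2 ratios relative to all genes. For the Dp16 effect over all VL spots, astrocyte genes were at -1.39 (Dp16 against wild-type) and 1.17 (the cross against 5xFAD alone), complement genes at -1.04 and 1.26, and myelin genes at -3.25 and 1.17. In cluster 13 of VL, astrocyte genes were at -2.24 and 0.91 and myelin genes at -2.72 and 0.87.

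For the 5xFAD effect over all VL spots, complement genes were at -1.44 (5xFAD against wild-type) and 0.88 (the cross against Dp16 alone), myelin genes at -2.31 and 2.30, and blood genes at 1.30 and -0.77. In cluster 13, astrocyte genes were at -1.82 and 0.92, myelin genes at -1.38 and 2.27, and blood genes at 1.36 and -0.62.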

How the results depend on the processing

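Of 268 alternative values, 207 stayed within the spread or the limit set for them, 61 moved beyond it and 0 changed sign among called values. Counts and shares could not change sign, and list medians between genotypes were checked for it only where past 1.5-fold. Smaller medians did change sign, as for the plaque-associated microglia list below. Of the 207, 30 came from keeping only spots of at least 1000 UMIs. Every VL spot held at least 3338 UMIs, so values from VL spots alone could not move under this setting. No leave-one-out and no paired analysis was possible because each genotype had 1 section. Removing cluster 21 spots and spots rich in Sspo or pineal genes was chosen after the values were seen. List medians between genotypes in this section do not have the median over all genes subtracted, unlike those called relative to all genes above. With TMM factors the median over all genes for Dp16 over wild-type itself moved from -0.11 to 0.20. Where a value moved, the cause was not tested.

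The choroid list's median for Dp16 over wild-type was 0.58, against 0.89 with TMM factors, 0.76 without Ttr in the totals, 0.75 as a mean over spots, 0.12 in cluster 13 and 0.39 without cluster 21. For 5xFAD-Dp16 over 5xFAD it was -0.29, against -0.58 as a mean over spots and -0.63 without cluster 21. For 5xFAD over wild-type it was 0.85, against 1.06 with TMM factors, 1.06 without Ttr, 1.26 as a mean over spots, 0.21 in cluster 13 and 1.00 without cluster 21. The cilia list's median was 0.09 for Dp16 over wild-type and 0.53 at a minimum of 200 CPM. For 5xFAD-Dp16 over 5xFAD it was 0.57, against 0.42 as a mean over spots, 0.38 at 200 CPM, 0.26 without cluster 21 and 0.28 without the Sspo and pineal spots. For 5xFAD over wild-type it was 0.49, against 1.03 as a mean over spots, 0.17 in cluster 13 and 0.81 at 200 CPM. For 5xFAD-Dp16 over Dp16 it was 0.99, against 0.66 at 200 CPM and 0.74 without the Sspo and pineal spots. The segment's median for 5xFAD-Dp16 over 5xFAD was 0.51 and, without cluster 21, 0.72. The plaque-associated microglia list moved from -0.17 to 0.14 with TMM factors for Dp16 over wild-type, and in cluster 13 from 0.07 to -0.16 for 5xFAD-Dp16 over 5xFAD and from 0.31 to 0.060 for 5xFAD-Dp16 over Dp16.

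Counts followed the fold and the minimum. Genes higher in both Dp16 pairs numbered 22, against 44 with TMM factors, 11 in cluster 13, 67 at 20 CPM, 8 at 200 CPM, 48 without cluster 21 and 3 at 2-fold. Genes lower in both numbered 47, against 29, 14, 192, 5, 5 and 18 in the same order, and 31 as a mean over spots. Genes higher in both 5xFAD pairs numbered 16, against 40 as a mean over spots, 7 in cluster 13, 51 at 20 CPM, 2 at 200 CPM and 2 at 2-fold. Genes lower in both numbered 50, against 16 in cluster 13, 188 at 20 CPM, 7 at 200 CPM, 90 without cluster 21 and 11 at 2-fold. The choroid list's ratio of VL over other spots went, without Ttr in the totals, from 4.90 to 5.12 in wild-type, 4.31 to 4.69 in Dp16, 4.57 to 4.98 in 5xFAD and 5.71 to 6.06 in 5xFAD-Dp16, and to 4.58 in Dp16 with TMM factors. Genes higher in VL in all 4 sections numbered 364, against 753 at 20 CPM and 80 at 200 CPM. Genes lower numbered 371, against 181 without Ttr, 866 at 20 CPM, 62 at 200 CPM and 140 at 2-fold. The share of Dp16 VL spots with Kcne2 was 64.8%, and 48.4% with at least 2 UMIs.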
